A study of Mus musculus with 9 samples.

Results

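The cytosolic ribosomal protein genes encode the proteins of the ribosome that works in the cytoplasm: proteins named Rpl belong to the large subunit and proteins named Rps to the small subunit. The members are the protein-coding RefSeq genes of mouse build GRCm38 whose symbol is Rpl or Rps with a number and at most 1 further letter a, l or x, together with Rplp0, Rplp1, Rplp2 and Rpsa, and without the Rps6k kinases. The rule gave 81 of 21631 protein-coding genes on chromosomes 1 to 19 and X: 43 large-subunit genes, 30 small-subunit genes, 3 stalk genes and 5 paralogs (Rpl3l, Rpl10l, Rpl32l, Rpl39l and Rps27l). The rule reads symbols and no accessibility value, but the family was chosen with earlier results of these data known.

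Open chromatin was measured by ATAC-seq, in which Tn5 transposase inserts sequencing adapters into accessible DNA, in sorted mouse peritoneal macrophages. The 9 samples make 3 groups of 3, and 1 merged peak list was deposited for each group, with no values of single samples. All mice carried Cx3cr1CreERT2-IRES-EYFP/+ and Rosa26-stopfl-tdTomato/+: the Cx3cr1 gene, active in monocytes and many macrophages, drives a tamoxifen-dependent Cre together with a yellow reporter, and Cre activity turns on a red reporter. All received 5 µg of IL-4 complexed with 25 µg of anti-IL-4 every other day, starting 4 days before harvest, which activates macrophages by the alternative route. For the tissue-converted group, mice had been injected with 2 ml of thioglycollate, which recruits monocytes to the cavity by irritation, and ate a tamoxifen diet for 8 weeks. Tissue-resident macrophages have no group treatment in the labels. Monocyte-derived macrophages were taken on day 4 after 2 ml of thioglycollate. Origin, treatment and time therefore change together between groups and cannot be told apart.

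The lists hold 15552 converted, 24348 resident and 33694 monocyte-derived peaks, with median widths of 125 bp (converted), 125 bp (resident) and 150 bp (monocyte-derived), and no read counts, so depth is unknown and a missing call can mean either closed chromatin or a signal under the authors' threshold. The authors' own peak p-values have a floor of 1e-12, and 0 converted, 5476 resident and 1267 monocyte-derived peaks lie above 1e-05. Peaks overlapping between lists were joined, giving 36843 regions, of which 12953 were called in converted, 20404 in resident and 31514 in monocyte-derived macrophages. Macrophage marker genes had a region in the window used here in 3 of 8 (converted), 8 of 8 (resident) and 8 of 8 (monocyte-derived) cases. Adgre1, which encodes F4/80, had 0 converted, 4 resident and 1 monocyte-derived regions, and alone had more resident than monocyte-derived ones. Csf1r had 2 in each of these 2 lists. The others, such as Lyz2 with 1 resident and 4 monocyte-derived regions, had more monocyte-derived ones. Adding up the marker lists of B cells, T and NK cells, mesothelial cells, neutrophils, eosinophils and mast cells, the only genes with a region were Cd79a, S100a8 and Siglecf in the converted and resident lists, and Cd79a, Cd79b, Cd3d, Cxcr2 and Siglecf in the monocyte-derived list. In bulk cells, fewer cells with an open site and less opening per cell give the same signal.

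Ribosomal protein genes are transcribed at high rates in all growing cells, and their mRNAs make up a large share of what is translated. Their promoters usually lack a strong TATA box, use factors of the ETS, YY1 and SP families, and start transcription at a cytosine within a run of pyrimidines, the 5′ terminal oligopyrimidine tract through which mTOR signalling and the protein LARP1 set the translation of these mRNAs. Many of the genes also carry small nucleolar RNAs in their introns, which guide the modification of ribosomal RNA.

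Promoters of several members are shown because they carry the contrasts described here: 2 stalk genes, 4 genes whose monocyte-derived start peaks were at the p-value floor without a converted call (Rpl36a, Rpl41, Rps24 and Rps26), 1 called in converted and monocyte-derived but not in resident macrophages (Rps16), 2 called in monocyte-derived macrophages alone (Rpl11 and Rps27) and 1 with no peak (Rps4x). Each runs 5′ to 3′ on the strand of the gene, from 120 bases before the annotated start to 20 bases from it, and is taken from RefSeq promoters of build GRCm38.p6. Capitals mark letters of the motifs that were searched (ETS, YY1, SP and TATA, on either strand) and the pyrimidine tract at the start.
Rplp0, chr5:115559347-115559486, plus strand: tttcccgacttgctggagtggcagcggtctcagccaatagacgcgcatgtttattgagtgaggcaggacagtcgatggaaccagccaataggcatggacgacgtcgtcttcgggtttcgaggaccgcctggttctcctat
Rplp2, chr7:141447531-141447670, plus strand: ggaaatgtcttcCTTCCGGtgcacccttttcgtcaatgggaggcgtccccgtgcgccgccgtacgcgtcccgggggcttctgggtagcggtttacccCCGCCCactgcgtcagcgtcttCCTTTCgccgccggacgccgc
Rpl36a, chrX:134585534-134585673, plus strand: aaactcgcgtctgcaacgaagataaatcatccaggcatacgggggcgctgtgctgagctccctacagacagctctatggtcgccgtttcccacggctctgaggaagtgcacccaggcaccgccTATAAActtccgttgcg
Rpl41, chr10:128549149-128549288, minus strand: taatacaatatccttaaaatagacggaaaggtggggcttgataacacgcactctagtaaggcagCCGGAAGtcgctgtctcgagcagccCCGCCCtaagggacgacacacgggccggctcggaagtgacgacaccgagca
Rps24, chr14:24490558-24490697, plus strand: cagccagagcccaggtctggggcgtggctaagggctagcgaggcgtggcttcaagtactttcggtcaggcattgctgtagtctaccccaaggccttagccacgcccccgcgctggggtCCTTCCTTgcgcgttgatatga
Rps26, chr10:128626487-128626626, minus strand: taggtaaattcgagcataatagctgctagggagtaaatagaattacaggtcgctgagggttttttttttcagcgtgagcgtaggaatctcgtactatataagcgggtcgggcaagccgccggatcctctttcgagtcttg
Rps16, chr7:28350569-28350708, plus strand: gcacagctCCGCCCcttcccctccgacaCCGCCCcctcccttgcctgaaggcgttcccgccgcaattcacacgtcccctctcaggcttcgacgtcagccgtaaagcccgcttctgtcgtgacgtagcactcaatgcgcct
Rpl11, chr4:136053374-136053513, minus strand: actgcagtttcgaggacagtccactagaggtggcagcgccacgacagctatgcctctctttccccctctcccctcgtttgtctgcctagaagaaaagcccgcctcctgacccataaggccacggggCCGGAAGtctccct
Rps27, chr3:90213629-90213768, minus strand: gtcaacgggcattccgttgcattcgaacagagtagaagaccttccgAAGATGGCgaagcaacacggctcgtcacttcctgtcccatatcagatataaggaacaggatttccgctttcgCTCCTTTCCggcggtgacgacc
Rps4x, chrX:102189372-102189511, minus strand: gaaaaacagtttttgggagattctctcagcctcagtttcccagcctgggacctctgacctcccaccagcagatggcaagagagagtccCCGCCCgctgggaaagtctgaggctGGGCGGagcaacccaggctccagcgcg

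The starts of ribosomal protein genes were called least often in converted macrophages, more often in resident and most often in monocyte-derived macrophages. A start region is a region within 500 bp of the annotated start, and the start was known for 61 of the 81 members. It was called for 23 members in the converted list (37.7%, 95% Wilson interval 26.6 to 50.3%), 36 in the resident list (59.0%, 46.5 to 70.5%) and 52 in the monocyte-derived list (85.2%, 74.3 to 92.0%). Over all 17274 protein-coding genes with a known start the shares were 30.8% (converted), 38.1% (resident) and 44.1% (monocyte-derived). The members' intervals lay above the background in the resident and monocyte-derived lists, and the converted interval includes it. These intervals cover counting error over genes and not differences between mice, and with 1 list per group no test between groups can be made. Many members have processed pseudogenes, copies of the mRNA that lack the promoter, and how reads matching several copies were placed is not stated in the labels or notes.

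Every member start called in converted macrophages (23 of 23, 85.7 to 100%) or in resident macrophages (36 of 36, 90.4 to 100%) was also called in monocyte-derived macrophages, and so were 97.7% of all converted and 94.6% of all resident starts, shares inside these intervals. All 3 lists called 21 starts (34.4%), and resident and monocyte-derived macrophages alone called 15 (24.6%). Monocyte-derived macrophages alone called 14 (23.0%), and converted and monocyte-derived macrophages alone called 2 (3.28%). The other 9 had no start region. Among all genes 28.9% were called in all 3 lists, 7.2% in resident and monocyte-derived, 6.81% in monocyte-derived alone, 1.19% in converted and monocyte-derived, and 1.57% in resident alone, a class with 0 members. The classes changed with list length. With each list cut to its 15552 peaks of smallest p-value, the member counts were 23 converted (37.7%), 27 resident (44.3%) and 34 monocyte-derived (55.7%). Background shares were 30.7% (converted), 30.2% (resident) and 31% (monocyte-derived). At these lengths 3 member starts were called in converted alone (Rpl37a, Rplp2 and Rps16), which is 4.92% (1.69 to 13.5%) against 2.47% of all genes. In resident alone 4 were called (Rpl10, Rpl13, Rpl19 and Rps27l), which is 6.56% (2.58 to 15.7%) against 3.33%. Rps2 was called in both of those lists but not the monocyte-derived one (1.64%, 0.29 to 8.72%, against 3.2%), and all 3 intervals include the background. Starts called in monocyte-derived macrophages alone numbered 10 (16.4%, 9.16 to 27.6%, against 3.76%). All 3 lists called 17 (27.9%, 18.2 to 40.2%, against 21.5%), resident and monocyte-derived macrophages alone called 5 (8.2%, 3.55 to 17.8%, against 2.17%), and converted and monocyte-derived macrophages alone called 2 (3.28%, 0.904 to 11.2%, against 3.53%).

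**Figure D1:**
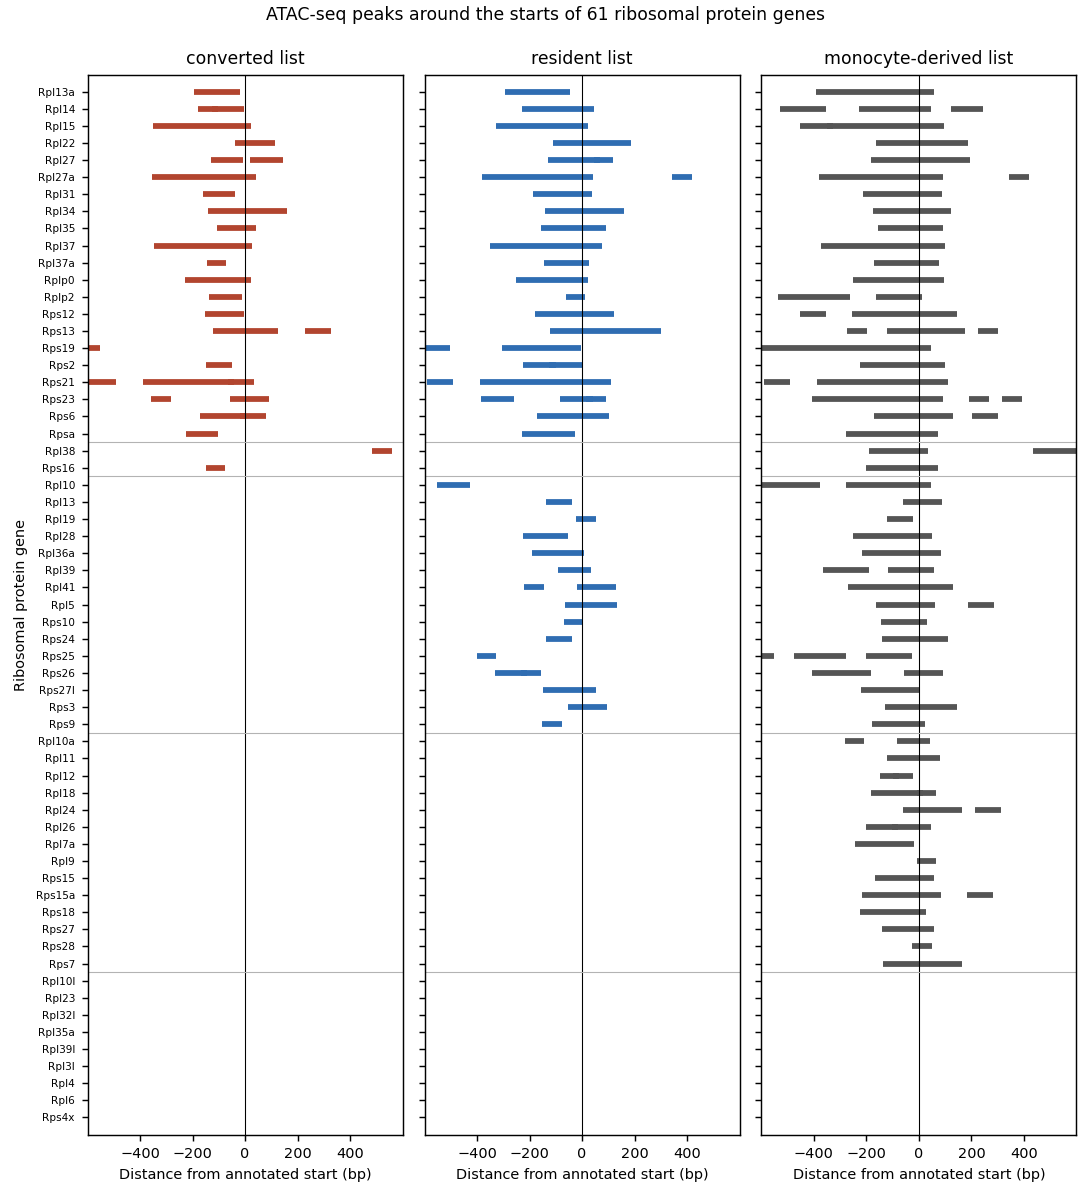
Peaks around the annotated starts of the 61 ribosomal protein genes with a known start (rows), with distance from the start in bp on the horizontal axis, negative upstream, and 1 panel per list; each bar is 1 deposited peak and grey lines separate the classes of start calls. The converted panel is filled for the upper 23 genes, the resident panel for 36 genes and the monocyte-derived panel for 52 genes, and the lowest 9 rows are empty.

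Among genes with a monocyte-derived start region, the converted list also called a smaller share of the members than of genes in general. This choice of genes uses the list in which the members were called most often (85.2%, against 44.1% of all genes). Without it the converted share was 37.7% for the members and 30.8% for all genes. A converted share of the members below that of genes in general is therefore not shown outside this choice. Of the 52 members with a monocyte-derived start region, the converted list also called 23 (44.2%, 31.6 to 57.7%), against 68.2% of all 7614 such genes. The resident list also called 36 of the 52 (69.2%, 55.7 to 80.1%), against 81.8% of all such genes. Of the 36 members with a resident start region, 21 were called in converted macrophages (58.3%, 42.2 to 72.9%), against 77.0% of all genes. At equal list lengths, a setting added for this share after seeing the data, the converted list called 19 of 34 members (55.9%, 39.5 to 71.1%) against 80.9% of all genes, and the resident list 22 of 34 (64.7%, 47.9 to 78.5%) against 76.5%. The converted intervals lay below the share of all genes in both settings, and the resident interval did so at the deposited lengths but not at equal lengths.

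The same shares were taken separately for monocyte-derived start peaks at the p-value floor of that list and for those above it, which span a range of p-values and were not matched for strength. Where the monocyte-derived start peak was at the floor of 1e-12, the converted list called 17 of 21 members (81.0%, 60.0 to 92.3%), against 96.8% of all genes, and the resident list called 21 of 21, against 99.4%. Where it was above the floor, the converted list called 6 of 31 members (19.4%, 9.19 to 36.3%), against 44.8%, and the resident list 15 of 31 (48.4%, 32.0 to 65.2%), against 67.5%. Mitochondrial ribosomal genes (Mrpl and Mrps) and proteasome subunit genes, other families that most cells use, were called in the converted list at 24 of 24 and 16 of 17 starts with a floor peak. Above the floor the converted list called 26.5% (14.6 to 43.1%) of the mitochondrial ribosomal genes, also below the 44.8% of all genes, and 33.3% (15.2 to 58.3%) of the proteasome genes, and both intervals overlap that of the members.

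In monocyte-derived macrophages the start share was 85.2% for the members, against 84.1% of 69 mitochondrial ribosomal genes and 78.0% of 41 proteasome genes. In converted macrophages the members stood at 37.7%, mitochondrial ribosomal genes at 47.8% (36.5 to 59.4%) and proteasome genes at 51.2% (36.5 to 65.7%), intervals that overlap. Of genes with a monocyte-derived start region, the converted list called 44.2% of members, 56.9% (44.1 to 68.8%) of mitochondrial ribosomal genes and 65.6% (48.3 to 79.6%) of proteasome genes. The resident list called 69.2% of members, 69.0% of mitochondrial ribosomal genes and 75.0% of proteasome genes. A share particular to the cytosolic ribosomal genes among these 3 families was not shown.

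**Figure D2:**
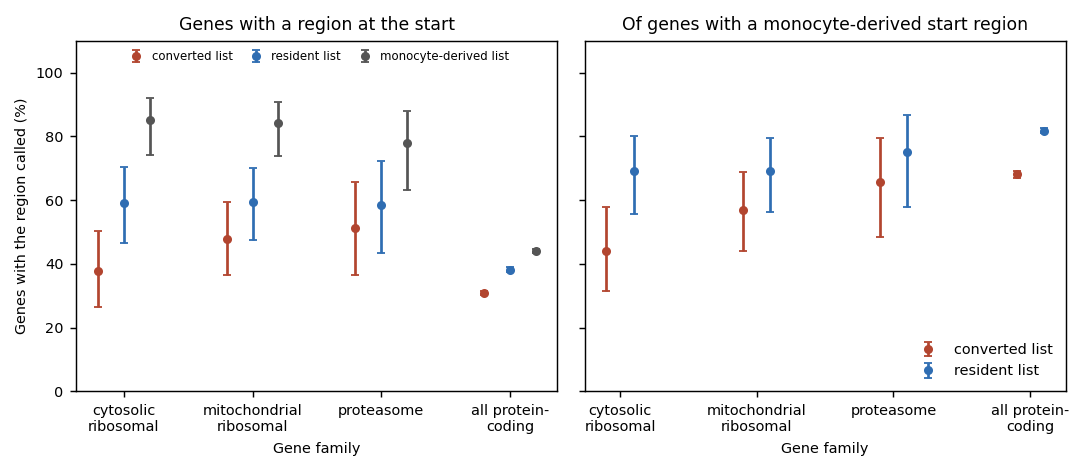
Share of genes (%) with a region within 500 bp of the start in each list (left), and share of genes with a monocyte-derived start region that the converted or resident list also called (right), for cytosolic ribosomal, mitochondrial ribosomal, proteasome and all protein-coding genes; points are shares and bars 95% Wilson intervals. In the right panel the converted share of cytosolic ribosomal genes, 44.2%, lies below that of all genes, 68.2%, and its interval overlaps those of the other 2 families. Genes in the right panel were chosen by the monocyte-derived list, in which the members were called most often. Without this choice (left panel) the converted share was 37.7% for the members and 30.8% for all genes.

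The stalk proteins form the flexible arm that recruits elongation factors, and both stalk genes with a known start were called in every list. Rplp0, the stalk base, had a single region in each list, with start peaks of 250 bp in converted, 275 bp in resident and 350 bp in monocyte-derived macrophages, all at the floor of 1e-12. Each of the 3 peaks covers the start of the promoter shown above. For Rplp2, called at its start in all 3 lists too, the widest peaks were 125 bp in converted, 75 bp in resident and 275 bp in monocyte-derived macrophages. Its window, the gene body with 10 kb on each side, held 2 converted, 5 resident and 6 monocyte-derived regions. Rplp1, whose start is not in the promoter table, had 0 converted, 1 resident and 1 monocyte-derived region, within 1 kb of a gene end.

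The converted list called 12 of 32 large-subunit starts (37.5%), the resident list 19 (59.4%) and the monocyte-derived list 28 (87.5%). At the floor in all 3 lists, besides Rplp0, stood Rpl15, Rpl27a, Rpl34 and Rpl37 of the large subunit with Rps13 and Rps21 of the small subunit. The start of Rpl34 was covered by a peak of 300 bp in every list. Rpl13a, which in human monocytic cells is released from the ribosome to silence inflammatory mRNAs, had start peaks of 175 bp in converted, 250 bp in resident and 450 bp in monocyte-derived macrophages. Rpl22, which mouse T-cell development needs, had 150 bp in converted, 300 bp in resident and 350 bp in monocyte-derived macrophages.

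Rpl5 and Rpl11 bind the 5S ribosomal RNA and, when ribosome assembly fails, the p53 regulator Mdm2; neither start was called in converted macrophages. Rpl5 had 0 converted, 1 resident and 2 monocyte-derived regions, and its resident start peak of 200 bp carried a p of 1.18e-05, within the 5476 resident peaks above 1e-05. Rpl11 had 0 converted, 0 resident and 1 monocyte-derived region, a 200 bp monocyte-derived peak with a p of 7.44e-09 that spans the whole stretch printed above. Rpl10, a late-joining protein that matures the large subunit, had 0 converted, 1 resident and 3 monocyte-derived regions. Rpl41, which encodes one of the smallest known proteins, had 0 converted, 2 resident and 2 monocyte-derived regions, and its start was covered for 225 bp in the resident and 400 bp in the monocyte-derived list. Rpl39 of the exit tunnel had 0 converted, 1 resident and 2 monocyte-derived regions. In Rpl38, which mouse embryos need to translate a set of Hox mRNAs, the converted start call was a 75 bp peak that begins 484 bases downstream of the start, while a monocyte-derived peak of 225 bp lay over the start itself. Rpl3, at the peptidyl transferase centre, had 0 converted, 1 resident and 1 monocyte-derived region, near a gene end.

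The remaining large-subunit starts that differed between lists were Rpl13, Rpl19, Rpl28 and Rpl36a, called in resident and monocyte-derived macrophages, and Rpl10a, Rpl12, Rpl18, Rpl24, Rpl26, Rpl7a and Rpl9, called in monocyte-derived macrophages. The last 7 had monocyte-derived start peaks of 75 to 225 bp with p-values of 2.07e-07 to 8.60e-06. Rpl36a stands apart in this set because its monocyte-derived peak of 300 bp was at the floor of its list. The resident peak of 200 bp lies above 1e-05 in its own list, with a p of 1.05e-05.

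Small-subunit starts were called at 9 of 22 genes (40.9%) in converted, 14 (63.6%) in resident and 21 (95.5%) in monocyte-derived macrophages. Rps6, the substrate of the S6 kinases, was covered at its start for 250 bp in converted, 275 bp in resident and 400 bp in monocyte-derived macrophages. Rpsa, also known as the laminin receptor, was covered for 125 bp in converted, 200 bp in resident and 350 bp in monocyte-derived macrophages. Rps2, at the mRNA entry of the small subunit, was covered for 100 bp in converted, 225 bp in resident and 325 bp in monocyte-derived macrophages. Rps19, mutated in human Diamond-Blackfan anaemia, had a monocyte-derived peak of 750 bp at the floor; the converted peak joined to it ends 554 bases upstream of the gene, so its converted call does not reach the 500 bp around the start. The converted list thus had its own start peak at 22 members.

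Rps24 and Rps26 had monocyte-derived start peaks at the floor and no converted start call, as did Rpl36a and Rpl41 of the large subunit. Rps24 had a resident peak of 100 bp ending 40 bases before the start, and a monocyte-derived peak of 250 bp that covers the start and its pyrimidine tract printed above. Rps26, whose protein lines the mRNA exit channel, had resident peaks ending 158 bases upstream of the start, and monocyte-derived peaks both upstream and over the start. Rps16 went the other way between tissue lists: a 75 bp converted peak ended 76 bases upstream of the start, over both SP motifs printed above, there was no resident peak, and a 275 bp monocyte-derived peak covered the motifs and the start. Rps27 was called in monocyte-derived macrophages alone by a 200 bp peak with a p of 3.85e-07.

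Other small-subunit starts called in resident and monocyte-derived macrophages were Rps3, Rps9, Rps10 and Rps25, and those called in monocyte-derived macrophages alone were Rps7, Rps15, Rps15a, Rps18 and Rps28. Rps27a, which encodes ubiquitin fused to a ribosomal protein and has no start in the table, had 2 converted, 2 resident and 3 monocyte-derived regions. Rps14, deleted in the human 5q- syndrome, had 1 converted, 1 resident and 2 monocyte-derived regions.

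The paralogs were mostly without peaks. Rpl10l and Rpl39l, expressed in testis, and Rpl32l had 0 regions in every list. Rps27l, which p53 induces, had 0 converted, 1 resident and 1 monocyte-derived region, all at its start. Rpl3l, a striated-muscle form of Rpl3, had 2 converted, 2 resident and 3 monocyte-derived regions, and none of them is a start region. In the converted list 1 of them lies 271 bp from Rpl3l and 30 bp from Msrb1, and the other lies inside its neighbour Rps2. Of the members other than paralogs, Rpl6, Rpl23 and Rps4x had 0 regions in every list, and Rpl4 and Rpl35a had none at the start. The single Rpl35a region, called in all 3 lists, lies 2075 bp beyond the gene and 394 bp from Lmln in the converted list.

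Where a start was called in all 3 lists, peaks mostly covered fewer bases around it in converted and resident than in monocyte-derived macrophages. Covered bases depend on the authors' threshold and on depth, which is unknown, so a narrower stretch of open chromatin is not shown. The 20 members with their own start peak in every list were covered for a median of 200 bp in converted, 275 bp in resident and 406.5 bp in monocyte-derived macrophages. Converted coverage was lower than monocyte-derived coverage at 19 of the 20 members and equal at 1 (median difference -175 bp), against a median difference of -125 bp over 4959 such genes. Resident coverage was lower than monocyte-derived coverage at 17 and equal at 3 (median -87.5 bp, against -75 bp over all genes), and converted coverage was lower than resident coverage at 16, equal at 2 and higher at 2 (median -75 bp, against -50 bp). All 3 differences have the direction seen over all genes.

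**Figure D3:**
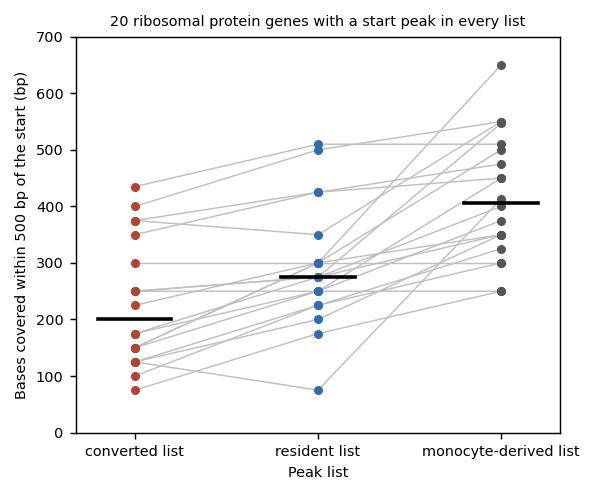
Bases covered by peaks within 500 bp of the annotated start (bp) in each list for the 20 ribosomal protein genes with a start peak in every list; points are genes, grey lines join the same gene and black bars are medians. Medians are 200 bp in converted, 275 bp in resident and 406.5 bp in monocyte-derived macrophages, and no gene has higher converted than monocyte-derived coverage.

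Converted start peaks of the members covered the start base less often than monocyte-derived ones. The start base itself was inside a start peak at 11 of 22 members in converted (50.0%, 30.7 to 69.3%), 26 of 36 in resident (72.2%, 56.0 to 84.2%) and 48 of 52 in monocyte-derived macrophages (92.3%, 81.8 to 97.0%). Over all genes the shares were 69.2% (converted), 72.2% (resident) and 84.7% (monocyte-derived). These have the same order and lie inside the members' intervals. Mitochondrial ribosomal genes had 87.9% (72.7 to 95.2%) in the converted list, an interval above that of the members, and proteasome genes had 66.7% (45.4 to 82.8%), an interval that overlaps it. Relative to the start, the median peak edges were -149.5 and -0.5 bp in converted, -164 and 25 bp in resident, and -186.5 and 69.5 bp in monocyte-derived macrophages. All of these values rest on annotated starts, whose accuracy in these cells was not tested. In 11 members, among them Rpl13a, Rplp2, Rps2 and Rps16, the monocyte-derived peak covered the start base and the converted peak did not.

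The share of members whose start peak reached the floor was 7 of 22 in converted (31.8%, 16.4 to 52.7%), 10 of 36 in resident (27.8%, 15.8 to 44.0%) and 21 of 52 in monocyte-derived macrophages (40.4%, 28.2 to 53.9%). Background shares were 38.6% (converted), 31.8% (resident) and 45% (monocyte-derived), all inside these intervals. Each share is read against its own list, since p-values of different lists need not be on one scale.

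Within the windows the members held 170 regions, of which 59 were called in converted, 95 in resident and 165 in monocyte-derived macrophages. A region called in all 3 lists made 30.0% of them (51 regions), against 28.1% of all 36843 regions. Of the 107 regions within 1 kb of a member's gene end, 39 were called in converted, 61 in resident and all 107 in monocyte-derived macrophages. Set against the 13658 regions within 1 kb of an end of any coding gene, regions of all 3 lists were less frequent (33.6%, 25.4 to 43.0%, against 44.2%) and regions of monocyte-derived macrophages alone more frequent (40.2%, 31.4 to 49.7%, against 26.0%). Regions of resident and monocyte-derived macrophages made 23.4% (16.4 to 32.2%, against 16.3%), with the background just below the lower bound. Regions of resident macrophages alone numbered 0 (up to 3.47%, against 7.51%). These intervals treat regions as independent, but several can lie side by side at 1 promoter, so the intervals may be too narrow. All 107 regions are in the monocyte-derived list, in which members were called most often. The region shares therefore do not show that members were called less often in all 3 lists. Counted by gene near a gene end, all 3 lists called 35.8% of members, against 27.5% of all genes. Monocyte-derived macrophages alone called 24.7%, against 6.6%. Joining peaks within 200 bp gave 51 converted, 85 resident and 128 monocyte-derived regions in the windows. Of the 63 regions farther out, 20 were converted, 34 resident and 58 monocyte-derived, and 32 of the 63 lie within 1 kb of an end of another coding gene, so they cannot be assigned to the ribosomal gene. The same holds for 22 of the 107 regions near a member's gene end, among them start regions of Rpl12, Rpl15 and Rplp2. Such start calls can belong to either gene.

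By gene, the window held a region for 40 members in converted (49.4%), 59 in resident (72.8%) and 75 in monocyte-derived macrophages (92.6%), against background shares of 43.2% (converted), 54% (resident) and 60.2% (monocyte-derived). Within 1 kb of a gene end, a measure that needs no start, 30 members were called in converted (37.0%, background 29.4%), 48 in resident (59.3%, background 36.9%) and 69 in monocyte-derived macrophages (85.2%, background 42.4%). Fewer regions in converted than in monocyte-derived macrophages were held by 63 members (77.8%) and more by 0, against 45.3% and 1.81% of all genes. In resident against monocyte-derived macrophages 54 (66.7%) had fewer and 1 (1.23%) had more, against 35% and 7.59% of all genes. In converted against resident macrophages 33 (40.7%) had fewer and 6 (7.41%) had more, against 29.2% and 4.44%. The 6 with more, each by 1 region, were Rpl21, Rpl29, Rpl34, Rpl38, Rps16 and Rpsa. Of this pair the resident list alone holds peaks above 1e-05. With both lists held to p at most 1e-05, 22 members had fewer and 9 had more converted than resident regions, and shares of all genes were not taken there. The 3 pairs share lists and are not independent.

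The counts changed with list length. At equal lengths 13 members had more and 28 fewer regions in converted than in monocyte-derived macrophages, against 13.2% and 19.2% of all genes, 17 had more and 26 fewer in resident than in monocyte-derived macrophages, against 16.2% and 19.8%, and 10 had more and 20 fewer in converted than in resident macrophages, against 14.8% and 16.7%.

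Rpl23a had the largest difference between converted and monocyte-derived macrophages, in a window shared with other genes. It had 0 converted, 1 resident and 5 monocyte-derived regions; 4 of the 5 lie outside the gene toward Nek8 and Tlcd1, and 1 lies over the end of the gene. Rps9 had 0 converted, 3 resident and 4 monocyte-derived regions, with 1 at the start. Rpl24 had 2 converted, 3 resident and 5 monocyte-derived regions, of which the converted ones lie 2177 and 3052 bp beyond the gene. Rpl14 had 1 converted, 4 resident and 5 monocyte-derived regions, with a start region in every list. Rpl7 had the most regions over the lists, 4 converted, 5 resident and 6 monocyte-derived, several of them between Rpl7 and its neighbour Rdh10. Rpl21 had 4 converted, 3 resident and 5 monocyte-derived regions, and Rpl35 had 3 converted, 4 resident and 5 monocyte-derived regions. Rps29 had 1 converted, 3 resident and 4 monocyte-derived regions, and Rpl18 had 0 converted, 2 resident and 3 monocyte-derived regions. Rps23, with no other coding gene in its window, had 2 converted, 3 resident and 5 monocyte-derived regions, and Rps15a had 0 converted, 0 resident and 3 monocyte-derived regions. Rpl29, which had more converted than resident regions, had 2 converted, 1 resident and 3 monocyte-derived ones, the converted ones at its neighbour Acy1. Another coding gene lies in the window of 71 members.

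Of the 81 members, 29 hold 58 small nucleolar RNA genes. Their starts were called at 9 of 19 (47.4%, 27.3 to 68.3%) in converted, 13 of 19 (68.4%) in resident and 16 of 19 (84.2%) in monocyte-derived macrophages. Members with none had 14 of 42 (33.3%, 21.0 to 48.4%) in converted, 23 of 42 (54.8%) in resident and 36 of 42 (85.7%) in monocyte-derived macrophages. The intervals overlap in every list.

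The promoters of the members held ETS and YY1 letters more often than promoters in general. Each promoter window ran from 250 bases before to 50 bases after the start, both strands were searched, and the ETS letters CCGGAAG were found in 25 of 61 members (41.0%, 29.5 to 53.5%), against 13.1% of 17274 promoters. AANATGGC, the YY1 letters, was found in 11 of 61 (95% interval 10.4 to 29.5%), against 7.53%. A pyrimidine tract, counted as a C within 3 bases of the start followed by at least 4 pyrimidines on the gene's strand, was present in 25 (41.0%, 29.5 to 53.5%), against 13.4% of all genes, 13.0% of mitochondrial ribosomal genes and 12.2% of proteasome genes. Rplp2, Rps24 and Rps27 show it among the promoters printed above. In Rps26 a C followed by a run of pyrimidines lies just beyond the 3 bases and was not counted. The count rests on annotated starts, whose accuracy in these cells was not tested, so it does not show which genes lack a tract. The SP letters GGGCGG (59.0%, against 49.8%), TATAAA (11.5%, against 14.9%), the NRF1 motif (8.2%, against 7.25%) and the E box CACGTG (9.84%, against 9.02%) differed from all promoters by less than the counting interval. Both sets of letters are shared with the other families: ETS letters with mitochondrial ribosomal genes (37.7%) and proteasome genes (34.1%), and YY1 letters with mitochondrial ribosomal genes (30.4%, 20.8 to 42.1%) and proteasome genes (14.6%, 6.88 to 28.4%), with intervals that overlap those of the members.

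**Figure D4:**
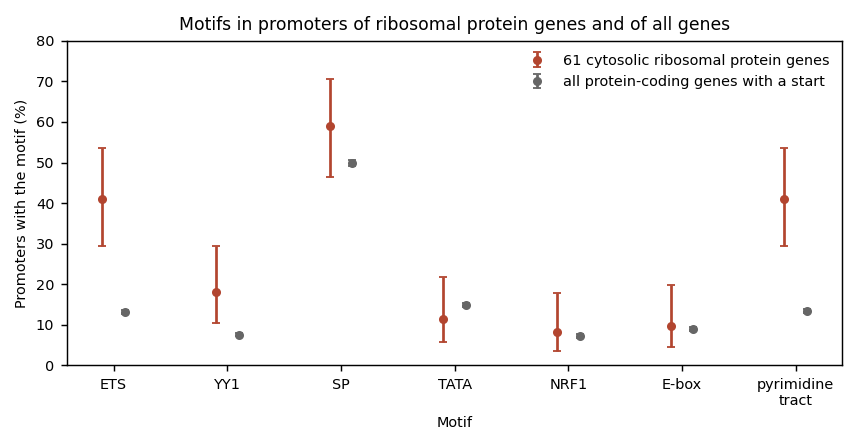
Share of promoters (%) that hold each motif in the 300 bases around the start, or the pyrimidine tract at the start, for 61 cytosolic ribosomal protein genes and 17274 protein-coding genes; points are shares and bars 95% Wilson intervals. The ETS letters and the pyrimidine tract stand at 41.0% in ribosomal genes, against 13.1% and 13.4% in all genes.

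Members with a converted start region had GC-richer promoters with SP letters more often. SP letters were found in 19 of the 23 members called in converted macrophages (82.6%, 62.9 to 93.0%) and in 17 of the 38 not called there (44.7%, 30.1 to 60.3%), and the median GC content of the promoter was 61.7% in those called and 55.0% in those not called. ETS letters were found in 52.2% of those called and 34.2% of those not called, as was the pyrimidine tract, with overlapping intervals. SP letters are made of G and C alone, and the part of GC content in this difference was not tested. The split was not made over all genes, so a trait of called promoters in general cannot be told from one of these members. Of the 23 members called in converted macrophages, 21 were called in all 3 lists. A split by all 3 lists is therefore nearly the same split, and cannot tell a converted call from a call in every list. SP letters were in 81.0% of members called in all 3 lists, 48.4% in some and 44.4% in none, with median GC of 62.3%, 56% and 52.7%. A match describes letters in the window and is not evidence of a bound factor.

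Genes that work with the ribosome were counted by a region near a gene end, where the shares of all genes, 29.4% in converted, 36.9% in resident and 42.4% in monocyte-derived macrophages, have the same order. Ribosomal genes with symbols outside the rule had a region within 1 kb of a gene end in 3 of 7 cases in converted, 4 of 7 in resident and 7 of 7 in monocyte-derived macrophages. Rack1, a scaffold on the small subunit, had 0 converted, 1 resident and 2 monocyte-derived regions in its window. Fau, a fusion with a ubiquitin-like protein, had 0 converted, 1 resident and 3 monocyte-derived regions. Among 27 ribosome assembly genes 15 were called in converted, 17 in resident and 25 in monocyte-derived macrophages. Polr1a, the largest subunit of RNA polymerase I, had 0 converted, 0 resident and 5 monocyte-derived regions. Among 21 translation factors 19 were called in converted, 19 in resident and 21 in monocyte-derived macrophages. The converted share near a gene end was 37.0% (27.3 to 47.9%) for the ribosomal protein genes, against 90.5% (71.1 to 97.3%) for these factors. At the start the intervals overlap: 37.7% (26.6 to 50.3%) for the ribosomal protein genes and 11 of 15 (73.3%, 48.0 to 89.1%) for these factors. Of the 15 translation factors with a known start, 10 were called there in all 3 lists, among them Eef1a1, which delivers tRNA, and Eif4b, Tpt1 and Naca. Another 3 were called there in monocyte-derived macrophages alone, the elongation factors Eef1b2 and Eef2 and the helicase Eif4a2. Of 16 genes that control ribosomal protein mRNAs or promoters, 7 were called in converted, 9 in resident and 12 in monocyte-derived macrophages. Mtor had 2 converted, 1 resident and 5 monocyte-derived regions, and Larp1 had 0 converted, 1 resident and 3 monocyte-derived regions.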

How the data were processed

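Libraries for ATAC-seq were made with Tn5 and sequenced on a HiSeq instrument, per the labels' protocols. The submitters' processing notes name Bowtie2 2.2.9 and the mm10 (GRCm38) build. For the peak caller, the Tn5 shift, duplicate handling and replicate merging the sources used here give nothing. The authors deposited 1 merged list per group with a p-value per peak, which ranked, filtered and described peaks within a list; p-values of different lists need not be on one scale. Peaks overlapping by at least 1 bp were joined to regions. Gene positions, starts and promoter sequences came from RefSeq tables of GRCm38.p6. Members had starts for 61 of 81 genes; the 20 without were judged by gene ends. Start distance was 500 bp, gene-end distance 1 kb and window flank 10 kb. Shares have 95% Wilson intervals. No test between groups was made. The counting of start calls was run on simulated lists for 21631 genes, with peaks planted over single starts far from other starts. It returned 200 of 200 planted patterns of calls over the 3 lists and called 0 other genes. This checks the counting alone, since windows shared with other genes and peaks off the start were not simulated. Members, gene lists and measures were chosen with earlier results of these data known. Genes are named by a fixed list, by absence from every list, by start calls that differ between lists, by most regions and by the 5 largest differences per pair; other genes named, such as the starts at the floor, were chosen after their values were seen. Rps4l is not in the table used. Values of some single genes are not reported here. Software was Python 3.11.15 with numpy 2.4.6, pandas 2.3.3, scipy 1.17.1 and matplotlib 3.10.9. Alternatives are described in the closing section.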

Additional observations from a re-analysis of the deposited data

How the results depend on the processing

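No paired analysis was possible because the files hold 1 merged list per group; leave-one-out fits were not run, since single replicates are not in the lists. Joining peaks at 50% overlap and moving the start distance to 250 bp or 1 kb moved no result past 1.5 times. At p at most 1e-10 the members with a window region numbered 13 converted, 17 resident and 36 monocyte-derived, with a start region 7, 10 and 21, with a gene-end region 7, 13 and 29, and the windows held 13, 19 and 42 regions; the median start peak width was 350 bp converted and 312.5 bp resident, all start peaks (100%) were at the floor in each list, members with fewer regions numbered 26 (converted against monocyte-derived), 21 (resident against monocyte-derived) and 8 (converted against resident), with more 2 in the last pair, and the resident list called 47.6% of the members with a monocyte-derived start, against 56.7% of all genes. At equal list lengths 34 members had a monocyte-derived start region, 87 regions were monocyte-derived and 61.8% of the monocyte-derived start peaks were at the floor; members with more and fewer regions numbered 13 and 28 (converted against monocyte-derived), 17 and 26 (resident against monocyte-derived) and 10 and 20 (converted against resident). At p at most 1e-05, 3 members had more resident than monocyte-derived regions; merging within 200 bp gave 2. With the gene body alone the lists called 34 converted, 50 resident and 86 monocyte-derived regions, 0 members had more and 31 fewer resident than monocyte-derived regions, and 19 had fewer converted than resident. With 50 kb flanks 65 members had a converted region, the lists called 141, 216 and 366 regions, and 5 members had more resident than monocyte-derived regions. With regions assigned solely to the nearest end of a gene, 38 regions were converted, 35 members had fewer resident than monocyte-derived regions and 3 had more converted than resident. The causes were not tested, except that stricter thresholds and narrower windows leave fewer peaks. The converted share of members with a monocyte-derived start stayed under the share of all genes at p at most 1e-10, where it was 33.3% against 55.3%. Every alternative keeps the choice of genes by the monocyte-derived list, so a lower converted share outside this choice is not shown. All alternatives of the converted and resident shares among genes with a monocyte-derived start were added after seeing the data. Depth is unknown, so weak sites may be missed in the shorter lists.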

Other observations

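Mouse ribosomal protein genes have many processed pseudogenes, copies of the mRNA that were inserted elsewhere in the genome. None of 318 annotated ribosomal protein pseudogenes with the suffix -ps had a region in its body in the converted, resident or monocyte-derived list, with a 95% Wilson interval of 0 to 1.19% in each list, for counting error only. Other pseudogenes had one in 0.687% (converted), 1.17% (resident) and 1.44% (monocyte-derived) of 10190 loci, of which the monocyte-derived share alone lies above that interval. The median length was 531 bp for the ribosomal pseudogenes and 936 bp for the others; the part of length was not tested. The bodies of the 81 members had a region in 38.3% (converted), 58.0% (resident) and 85.2% (monocyte-derived) of cases.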
